A study of Mus musculus with 12 samples.

Results

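The basal and wound keratins Krt5, Krt14, Krt15, Krt16, Krt17, Krt6a and Krt6b were followed through RNA-seq libraries of mouse embryonic fibroblasts (MEFs) in a study of early reprogramming. They were taken by gene symbol, and all 7 were found among the 23284 gene symbols of the tables. The members were selected on measured values, among them the high levels of keratins in siControl cells given doxycycline (dox). That contrast is therefore described below without a test.

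Keratins are intermediate filament proteins of epithelial cells. A filament is built from pairs, each of a type I and a type II keratin. In stratified epithelium such as epidermis, dividing basal cells make the type II keratin Krt5 with the type I keratin Krt14, and Krt15 is a further type I keratin of basal and hair follicle cells. The type II keratins Krt6a and Krt6b and the type I keratins Krt16 and Krt17 are sparse in resting epidermis between hair follicles and come up at wounds and in hyperproliferative skin. Fibroblasts are mesenchymal cells that build their filaments chiefly from vimentin.

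All libraries came from a single MEF line, labelled 2o 1B MEFs, that had been transfected with siRNA. The groups with dox for 2 days received sic-Myc (siRNA against c-Myc), siGcn5 (siRNA against the acetyltransferase Gcn5, gene Kat2a) or siControl. The same 3 siRNA groups were also kept without dox. Each of these 6 groups held 2 libraries, and no label ties the replicates to separate cultures, so a p-value below sets a difference against the spread of these libraries alone, and that spread could be technical. The labels give no account of what dox switches on in this line, nor whether each siRNA of these libraries was a pool or a single one.

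Levels are RPKM, reads scaled by gene length and by library size, so they can be compared between genes. Whole reads recovered from the RPKM steps put the depth at 65.5 M to 188 M reads in genes per library. Both ends of this range were sic-Myc libraries with dox, replicate 1 at 65.5 M and replicate 2 at 188 M. Myc averaged 21.6 ± 6.65 RPKM in sic-Myc cells with dox and 165 ± 13.6 RPKM in siControl cells with dox (SD, n = 2 each). Kat2a averaged 7.69 ± 2.01 RPKM in siGcn5 cells with dox and 54.4 ± 1.83 RPKM in siControl cells with dox (SD, n = 2 each). The group labels and the targeted genes thus pointed the same way. Each knockdown also went with a lower level of the other target. Kat2a averaged 18.8 ± 0.876 RPKM in sic-Myc cells with dox (SD, n = 2). Myc averaged 116 ± 17.9 RPKM in siGcn5 cells with dox (SD, n = 2; adjusted p = 0.0464 against siControl cells, limma). Without dox Myc averaged 8.2 ± 1.56 RPKM in siGcn5 cells and 19.6 ± 2.97 RPKM in siControl cells (SD, n = 2 each; adjusted p = 0.000613, limma).

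The 7 genes lie in the 2 keratin clusters of the mouse genome. In the GENCODE annotation of GRCm38, whose build differs from the one named for the tables (mm9), all 7 are protein-coding genes on the minus strand. The type I genes are Krt15 at chr11:100131758-100135928, Krt14 at chr11:100203162-100207548, Krt16 at chr11:100246091-100248902 and Krt17 at chr11:100256217-100261029, each with 8 exons. The type II genes are Krt6b at chr15:101676023-101680287, Krt6a at chr15:101689910-101694307 and Krt5 at chr15:101707070-101712898, each with 9 exons. Neighbours in a cluster resemble each other closely, which bears on how reads are given to genes. Krt6a and Krt6b are 97.8% identical over 1662 aligned coding bases, with a longest identical run of 280 bases. Krt14 is 86.5% identical to Krt16 and 84.1% identical to Krt17.

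The stretch of coding sequence in which Krt6a and Krt6b differ most is shown because the levels of these paralogs parted between the siRNA groups. In these 90 bases, coding positions 787 to 876 of both genes, 12 positions differ and stand in capitals.
Krt6a: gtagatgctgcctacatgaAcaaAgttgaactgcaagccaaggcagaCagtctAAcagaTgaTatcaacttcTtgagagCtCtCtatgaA
Krt6b: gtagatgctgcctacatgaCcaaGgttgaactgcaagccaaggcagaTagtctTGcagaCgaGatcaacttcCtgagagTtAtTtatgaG

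The stretch in which Krt14, Krt16 and Krt17 are most alike is shown because Krt14 and Krt16 moved together while Krt17 did not move with them. Only 4 of its 90 positions, in capitals, differ between any of the 3 genes. The stretch spans coding positions 1180 to 1269 in Krt14, 1156 to 1245 in Krt16 and 1069 to 1158 in Krt17.
Krt14: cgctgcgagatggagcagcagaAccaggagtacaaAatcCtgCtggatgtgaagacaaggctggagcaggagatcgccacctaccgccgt
Krt16: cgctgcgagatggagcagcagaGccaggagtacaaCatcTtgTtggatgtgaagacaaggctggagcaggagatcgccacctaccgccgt
Krt17: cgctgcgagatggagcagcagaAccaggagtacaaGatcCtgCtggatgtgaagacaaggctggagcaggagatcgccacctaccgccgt

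Of the 50-base words in the Krt6a transcript, 49.5% also occur in a transcript of another gene, and of those in the Krt6b transcript 50.1% do. The share was 37.6% for Krt16, where 25.2% of the words occur in the pseudogene Gm11597. It was 14.4% for Krt14, 8.52% for Krt5, 3.99% for Krt17 and 0.666% for Krt15. How the authors' counting treated reads that match several genes is not given in the sources used here, so the levels of Krt6a, Krt6b and Krt16 are uncertain to that extent. An annotated antisense gene, Gm49428, also overlaps Krt6a, and whether the counting used strand is not stated.

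Without dox the keratins were close to absent. Over the 6 libraries without dox and the 7 genes, the highest level was 0.68 RPKM, of Krt14 in siGcn5 cells. With dox the genes parted into an abundant and a scarce set. Krt14, Krt16, Krt17, Krt6a and Krt6b reached 23.0 RPKM or more in every dox library, whereas Krt15 and Krt5 stayed under 2 RPKM. The name basal therefore fits the data only in part: Krt14 was the most abundant of the 7, and its usual type II partner Krt5 was among the 2 scarcest.

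**Figure D1:**
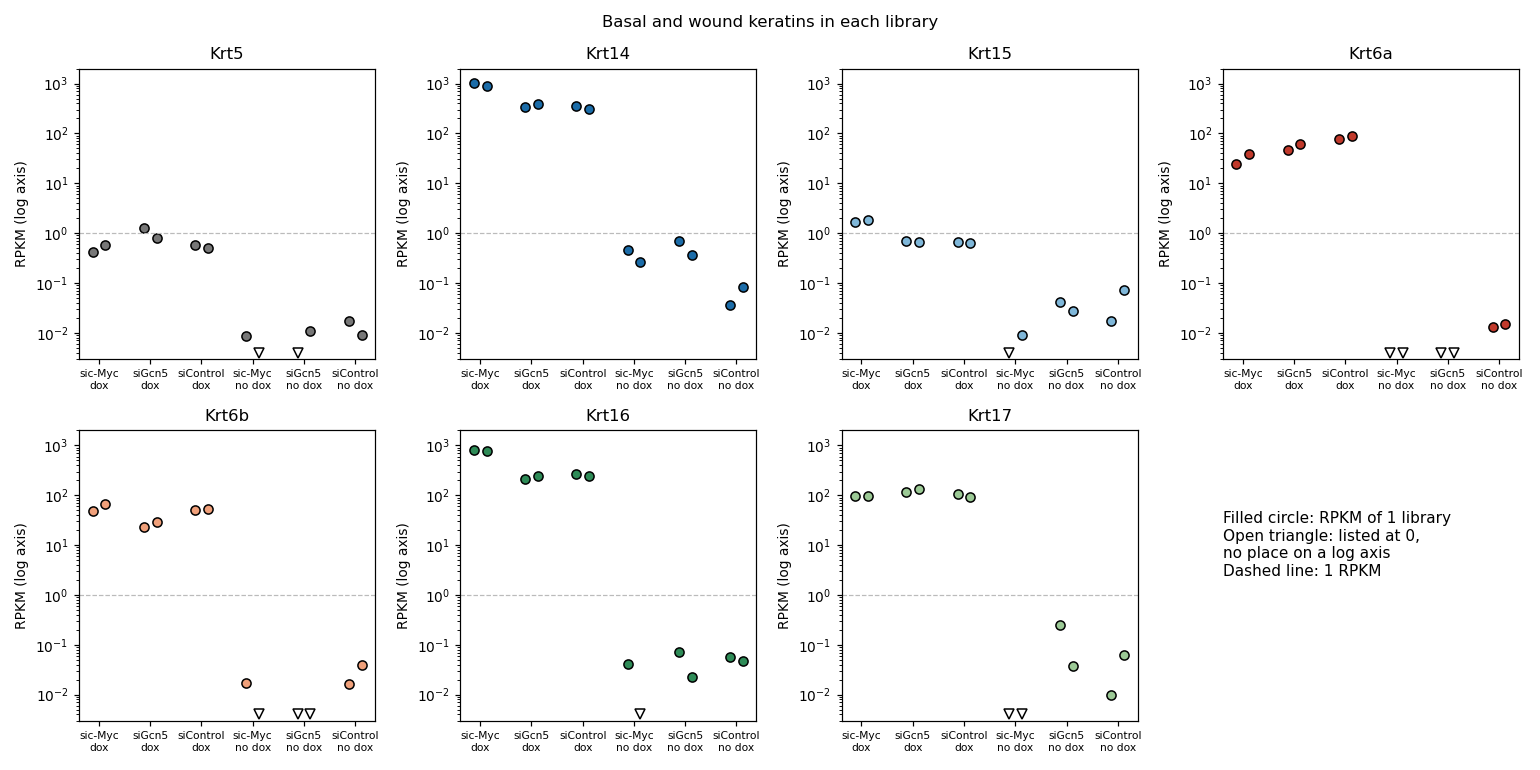
RPKM of each keratin (log axis) in each of the 12 libraries, with groups along the horizontal axis. Filled circles are single libraries and open triangles are libraries in which the gene is listed at 0; the dox libraries lie above those without dox for all 7 genes, and Krt5 and Krt15 remain near the dashed line at 1 RPKM.

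Krt14, the type I keratin of basal cells, had 357 and 311 RPKM in siControl cells with dox, against 0.0358 and 0.0843 RPKM in siControl cells without dox. The values without dox rest on 8 and 21 reads. Krt16, a type I keratin of wounds, had 272 and 241 RPKM in siControl cells with dox, against 0.057 and 0.0469 RPKM without dox. Among the 23284 gene symbols Krt16 ranked 303 and 357 by RPKM in the siControl libraries with dox, and Krt14 stood higher.

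Krt17, the type I keratin of stressed and follicular epithelium, had 108 and 92.7 RPKM in siControl cells with dox, against 0.00982 and 0.0617 RPKM without dox. The type II wound keratins were lower again. Krt6a had 78.2 and 88.7 RPKM in siControl cells with dox, against 0.0131 and 0.0148 RPKM without dox. Krt6b had 50.7 and 53.4 RPKM in siControl cells with dox, against 0.0166 and 0.0387 RPKM without dox. For each of these genes both dox libraries lay far above both libraries without dox, and the 5 abundant genes kept the same order, Krt14, Krt16, Krt17, Krt6a, Krt6b, in both siControl libraries with dox. The ranges of Krt17 and Krt6a lay next to each other without overlap.

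Krt15 had 0.651 and 0.633 RPKM in siControl cells with dox, on 149 and 106 reads, against 0.0173 and 0.0736 RPKM without dox. Krt5 had 0.566 and 0.502 RPKM with dox, on 165 and 107 reads, against 0.0169 and 0.00913 RPKM without dox. In the dox-treated siControl cells the level of Krt14 was 630.4 and 619 times that of Krt5. The near absence of Krt5 left Krt6a and Krt6b as the main type II keratins of this set.

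The dox response was present in the knockdown cells as well, in libraries that share no sample with the siControl contrast. In sic-Myc cells Krt14 had 1005 and 904 RPKM with dox, against 0.454 and 0.264 RPKM without dox. Krt16 had 806 and 783 RPKM with dox, against 0.0409 and 0 RPKM without dox. In siGcn5 cells Krt14 had 341 and 393 RPKM with dox, against 0.68 and 0.363 RPKM without dox, and Krt16 had 217 and 241 RPKM with dox, against 0.0722 and 0.0222 RPKM without dox. No library with dox overlapped one without dox for either gene.

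Several of the wound keratins had no read at all in knockdown cells without dox, so their response has only a lower bound, set against a floor of 3 reads per library. Krt17 was at least 7054-fold higher and Krt6a at least 3353-fold higher with dox in sic-Myc cells. Krt6a was at least 4169-fold higher and Krt6b at least 1991-fold higher with dox in siGcn5 cells. A floor of 3 reads corresponded to 0.00849 to 0.0155 RPKM for these 3 genes in the libraries concerned, counting error only.

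For testing, values were compared as log2(RPKM + 1) with limma across the 13175 genes at 1 RPKM or more in at least 2 libraries, with Benjamini-Hochberg adjustment and a threshold of 0.05. On this scale changes of scarce genes are understated. Of the 7 keratins 6 passed the filter, and Krt5 did not. In sic-Myc cells all 6 were higher with dox, against 28.9% of all genes tested, with differences in log2(RPKM + 1) of 1.45 for Krt15 and 4.98 to 9.61 for the others (largest adjusted p = 7.85e-08, limma). In siGcn5 cells all 6 were higher with dox, against 36.0% of all genes tested, with differences of 0.70 for Krt15 and 4.75 to 7.92 for the others (largest adjusted p = 2.49e-05, limma). These genes passed the filter only through dox libraries and were chosen with high keratin levels in siControl cells with dox known. A rise with dox was thus favoured by the selection, and the counts lend no support of their own. Krt15 passed only through the sic-Myc libraries with dox, so its difference in sic-Myc cells was built in. The sizes depend on the scale: with voom on the recovered reads Krt15 and Krt6a differed by 8.6 and 14.3 on the log2 scale in sic-Myc cells and by 4.19 and 14.6 in siGcn5 cells.

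With dox, the knockdown of c-Myc split the set. Krt14 and Krt16 rose about equally, Krt6a fell, and Krt17 and Krt6b did not pass the test. Of the 6 keratins tested, 3 were higher and 1 was lower in sic-Myc cells than in siControl cells, against 74.9% of all genes tested that passed in either direction. That share is close to the background, so the count says little, and what follows turns on the sizes and directions. The siControl libraries with dox are those whose high keratin levels were known when the genes were chosen.

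Krt14 had 1005 and 904 RPKM in sic-Myc cells with dox, against 357 and 311 RPKM in siControl cells with dox. The groups did not overlap, and the means of 954 ± 71.2 and 334 ± 32.3 RPKM (SD, n = 2 each) differed 2.86-fold. The difference in log2(RPKM + 1) was 1.51 (SE 0.12, adjusted p = 1.84e-06, limma). Among all gene symbols Krt14 ranked 41 and 62 in the sic-Myc libraries with dox, against 231 and 260 in the siControl libraries with dox.

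Krt16 had 806 and 783 RPKM in sic-Myc cells with dox, against 272 and 241 RPKM in siControl cells with dox. The means differed 3.09-fold, with a log2 difference of 1.63 (SE 0.08, adjusted p = 1.5e-07, limma). The ratio of Krt14 to Krt16 was 1.25 and 1.15 in sic-Myc cells with dox and 1.31 and 1.29 in siControl cells with dox. The ratio thus lay between 1.15 and 1.31 over these 4 libraries, without overlap between the groups. It was higher in siGcn5 cells with dox, at 1.57 and 1.63.

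Krt15, at a far lower level, had 1.66 and 1.82 RPKM in sic-Myc cells with dox, against 0.651 and 0.633 RPKM in siControl cells with dox. The means differed 2.71-fold, with a log2(RPKM + 1) difference of 0.74 (SE 0.07, adjusted p = 5.75e-06, limma). Krt15 entered the test only through the sic-Myc libraries with dox, in which alone it reached 1 RPKM, so a difference was built into its selection. The sic-Myc values rest on 187 and 588 reads, the siControl values on 149 and 106. With a pseudocount of 0.1 the difference was 1.31 (adjusted p = 0.00034, limma) and with voom on the recovered reads 1.45 (adjusted p = 0.000762).

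Krt6a, a type II wound keratin, had 23.9 and 38.7 RPKM in sic-Myc cells with dox, against 78.2 and 88.7 RPKM in siControl cells with dox. It was 2.66-fold lower, with a log2 difference of -1.42 (SE 0.19, adjusted p = 6.86e-05, limma). Its near twin Krt6b had 49.2 and 67.6 RPKM in sic-Myc cells with dox, against 50.7 and 53.4 RPKM in siControl cells with dox. These ranges overlapped, and the log2 difference of 0.15 (SE 0.14) did not pass the test (adjusted p = 0.371, limma). It passed only without sic-Myc replicate 1 with dox (0.37, adjusted p = 0.0346).

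Krt17 had 98.0 and 98.8 RPKM in sic-Myc cells with dox, inside the range of the siControl cells with dox at 108 and 92.7 RPKM. The log2 difference was -0.024 (SE 0.11, adjusted p = 0.845, limma). The ratio of Krt14 to Krt17 was 10.3 and 9.15 in sic-Myc cells with dox, against 3.3 and 3.35 in siControl cells with dox. Krt5 had 0.411 and 0.575 RPKM in sic-Myc cells with dox, against 0.566 and 0.502 RPKM, and its log2 difference of -0.041 in a fit without the filter did not pass the test (adjusted p = 0.758, limma).

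**Figure D2:**
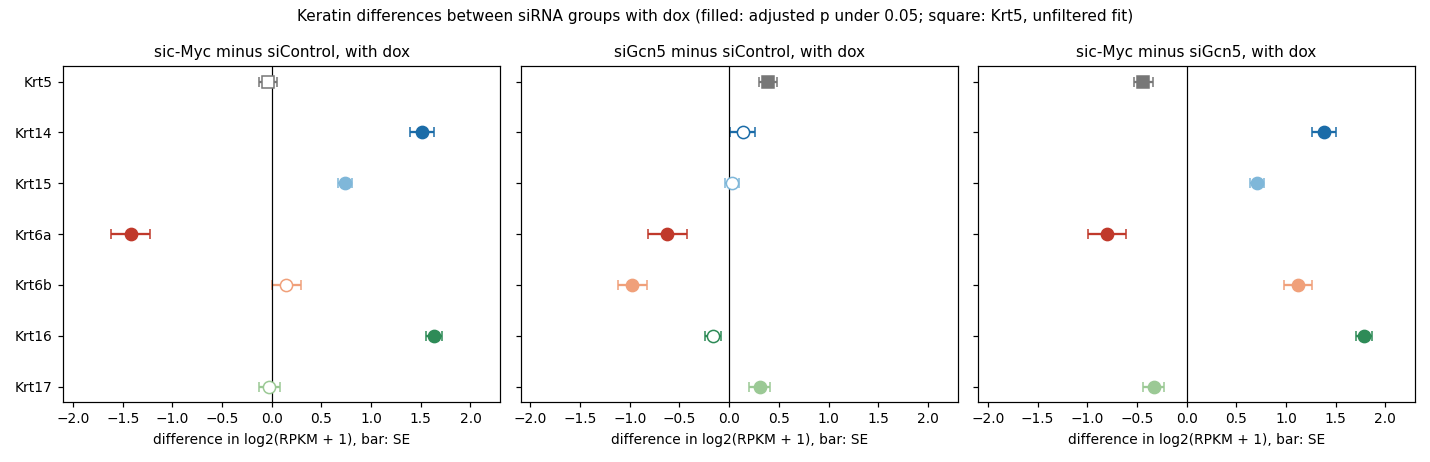
Differences in log2(RPKM + 1) between siRNA groups with dox for each keratin, as fitted by limma, with the SE as bars; filled symbols passed the test at an adjusted p under 0.05, and the square is Krt5 from the unfiltered fit. Krt14 and Krt16 stand at 1.51 and 1.63 in sic-Myc against siControl cells and near 0 in siGcn5 against siControl cells, while Krt6b stands at 0.15 and -0.97.

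Knockdown of Gcn5 left Krt14 and Krt16 near their siControl levels and lowered the pair of type II wound keratins. Of the 6 keratins tested, Krt17 was higher and Krt6a and Krt6b were lower in siGcn5 cells than in siControl cells with dox, against 56.3% of all genes tested that passed in either direction. Again this is no more than the background share. The comparison uses the same siControl libraries as that for sic-Myc.

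Krt6b had 23.0 and 29.4 RPKM in siGcn5 cells with dox, against 50.7 and 53.4 RPKM in siControl cells with dox. It was 1.99-fold lower, with a log2 difference of -0.97 (SE 0.14, adjusted p = 0.000363, limma). Krt6a had 46.2 and 62.6 RPKM in siGcn5 cells with dox, against 78.2 and 88.7 RPKM in siControl cells with dox, and a log2 difference of -0.62 (SE 0.19, adjusted p = 0.0198, limma). Both genes showed no overlap between the groups. The call of Krt6a was lost without siGcn5 replicate 1 with dox (log2 difference -0.41, adjusted p = 0.162, limma) and without siControl replicate 2 with dox (-0.53, adjusted p = 0.113).

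Krt17 had 118 and 131 RPKM in siGcn5 cells with dox, against 108 and 92.7 RPKM in siControl cells with dox. The difference was 1.24-fold, with a log2 difference of 0.31 (SE 0.11, adjusted p = 0.0293, limma). It did not pass with a pseudocount of 0.1 (adjusted p = 0.453, limma), with median-ratio scaling (0.19, adjusted p = 0.138), with voom on the recovered reads (adjusted p = 0.0677), without siControl replicate 2 (0.20, adjusted p = 0.215) or without siGcn5 replicate 2 (0.24, adjusted p = 0.143).

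Krt14 had 341 and 393 RPKM in siGcn5 cells with dox, a range that overlapped that of siControl cells, and a log2 difference of 0.14 (SE 0.12, adjusted p = 0.37, limma). Krt16 had 217 and 241 RPKM in siGcn5 cells, against 272 and 241 RPKM in siControl cells, and a log2 difference of -0.16 (SE 0.08, adjusted p = 0.108, limma) that passed under median-ratio scaling (-0.28, adjusted p = 0.0146). Krt15, at 0.704 and 0.653 RPKM in siGcn5 cells, had a log2(RPKM + 1) difference of 0.032 (SE 0.07, adjusted p = 0.723, limma). Krt5 had 1.25 and 0.804 RPKM in siGcn5 cells, against 0.566 and 0.502 RPKM in siControl cells. In the fit without the filter this was a difference of 0.39 (SE 0.09, adjusted p = 0.0103, limma). In that fit the scarce basal type II keratin was thus higher where the wound type II keratins were lower. The dox response of Krt5 in siGcn5 cells did not differ from that in siControl cells by the test (0.405, adjusted p = 0.0726, limma). Krt5 was not refitted under the other alternatives.

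In a direct comparison of the knockdowns the difference itself uses no siControl library. Its SE and p-value still do, through the spread shared by all 12 libraries. Of the 6 keratins tested, 4 were higher and 2 were lower in sic-Myc cells than in siGcn5 cells with dox, against 65.9% of all genes tested that passed in either direction. Krt14 was 2.6-fold higher (log2 difference 1.38, SE 0.12, adjusted p = 5.24e-06, limma), Krt16 3.47-fold higher (1.79, SE 0.08, adjusted p = 1e-07) and Krt6b 2.23-fold higher (1.12, SE 0.14, adjusted p = 6.38e-05). Krt15 was also higher, by 0.71 (SE 0.07, adjusted p = 1.18e-05), with the same reservation on its selection.

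Krt6a was lower in sic-Myc than in siGcn5 cells, by a log2 difference of -0.80 (SE 0.19, adjusted p = 0.00412, limma), so the paralogs Krt6a and Krt6b passed in opposite directions. Without sic-Myc replicate 1 with dox the difference of Krt6a was -0.46 (adjusted p = 0.0328, limma). Krt17 was lower as well, by -0.33 (SE 0.11, adjusted p = 0.0171, limma), but its call was lost with a pseudocount of 0.1 (adjusted p = 0.399), under median-ratio scaling (-0.19, adjusted p = 0.132), and without sic-Myc replicate 1 (adjusted p = 0.0688), sic-Myc replicate 2 (adjusted p = 0.0587) or siGcn5 replicate 2 (-0.26, adjusted p = 0.103). Krt5 was lower in sic-Myc cells by -0.43 in the fit without the filter (SE 0.09, adjusted p = 0.0044, limma).

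Ratios taken within a library show the shift in makeup directly. Krt6a over Krt6b was 0.486 and 0.573 in sic-Myc cells, 2.01 and 2.13 in siGcn5 cells and 1.54 and 1.66 in siControl cells, all with dox. Krt6b was thus the more abundant paralog in sic-Myc cells and the less abundant in the other groups. The sum of the 4 type I members over the 3 type II members was 26.0 and 16.7 in sic-Myc cells, 9.6 and 8.25 in siGcn5 cells and 5.7 and 4.53 in siControl cells with dox. Neither ratio overlapped between any of the groups. The ratios were not tested, since with 2 libraries against 2 an exact permutation test cannot go below p = 0.333 (two-sided).

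**Figure D3:**
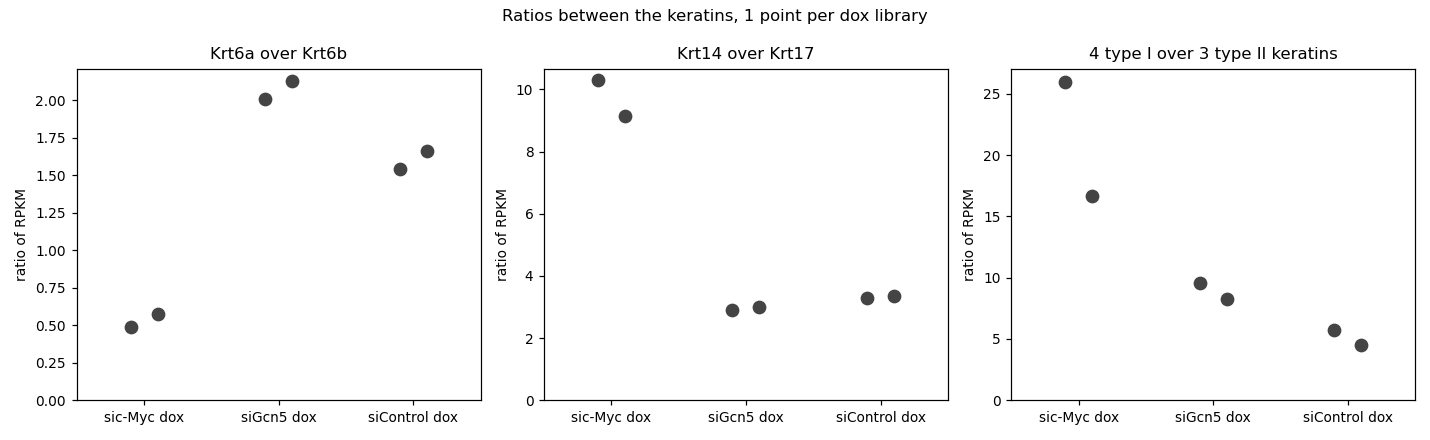
Ratios of RPKM within each dox library, 1 point per library, for Krt6a over Krt6b, Krt14 over Krt17 and the 4 type I over the 3 type II members. The sic-Myc libraries lie lowest for Krt6a over Krt6b, at 0.486 and 0.573, and highest for the other ratios.

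Summed over the 7 genes, the level was 1984 and 1895 RPKM in sic-Myc cells, 747 and 858 RPKM in siGcn5 cells and 867 and 788 RPKM in siControl cells with dox. Krt14 and Krt16 made up most of it everywhere. Krt14 held 50.7% and 47.7% of the sum in sic-Myc cells, 45.6% and 45.8% in siGcn5 cells and 41.2% and 39.5% in siControl cells. Krt6a held 1.21% and 2.04% in sic-Myc cells, 6.19% and 7.29% in siGcn5 cells and 9.02% and 11.3% in siControl cells. Krt17 held 4.94% and 5.21% in sic-Myc cells, 15.8% and 15.2% in siGcn5 cells and 12.5% and 11.8% in siControl cells.

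**Figure D4:**
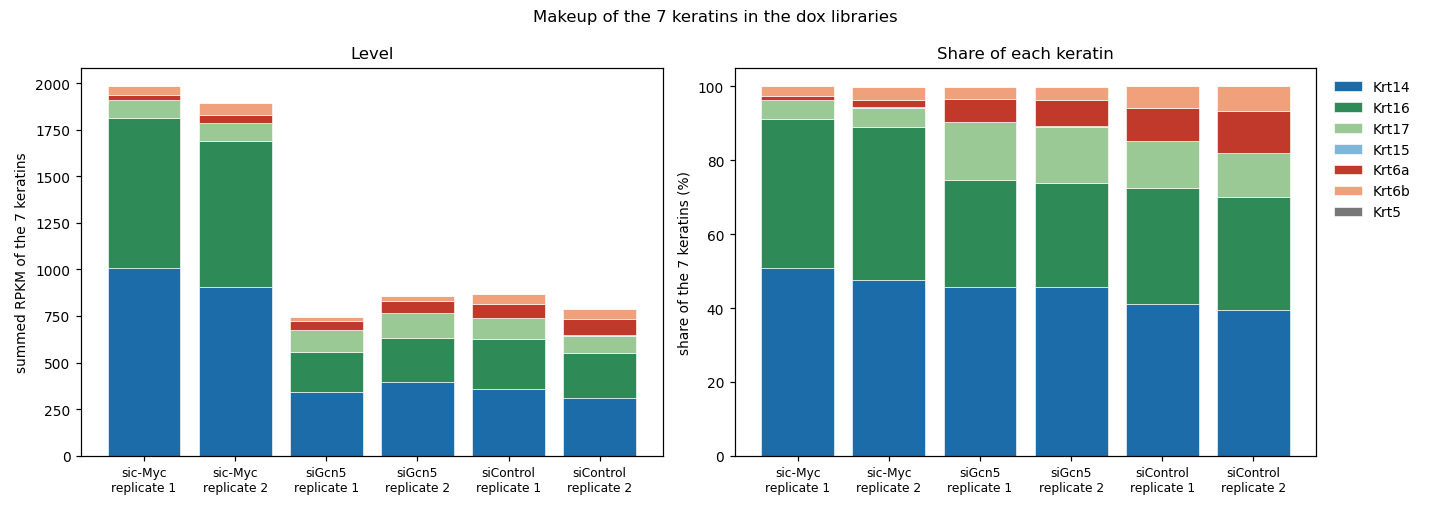
Summed RPKM of the 7 keratins (left) and the share of each in that sum (right) in the 6 dox libraries. The sic-Myc libraries reach 1984 and 1895 RPKM, the others 747 to 867 RPKM, and Krt15 and Krt5 are too scarce to be seen.

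Within all keratin symbols of the tables the 7 genes dominated after dox. They made up 79.8% and 80.9% of the summed keratin RPKM in sic-Myc cells, 78.8% and 79.2% in siGcn5 cells and 76.5% and 76.9% in siControl cells with dox. Without dox their share was 0.46% to 1.24% over the 6 libraries. Other type II keratins were abundant too. Krt8, the type II keratin of simple epithelia, had 212 and 197 RPKM in sic-Myc cells, 87.7 and 110.4 RPKM in siGcn5 cells and 132 and 118 RPKM in siControl cells with dox. Krt80 had 158 and 128 RPKM in sic-Myc cells, above Krt6a and Krt6b there, 21.6 and 24.9 RPKM in siGcn5 cells and 31.4 and 27.1 RPKM in siControl cells with dox. With every keratin counted, type I over type II came to 4.29 and 4.16 in sic-Myc cells, 3.69 and 3.33 in siGcn5 cells and 2.69 and 2.38 in siControl cells with dox, so the order of the groups was kept.

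Without dox the knockdowns could be compared only at the edge of detection. None of the 6 keratins passed in sic-Myc against siControl cells (limma; 1, Krt14, had an unadjusted p under 0.05, and voom on the recovered reads called 2), against 23.5% of all genes tested, and 1 passed in siGcn5 against siControl cells, against 57.3%. That gene was again Krt14. It had 0.454 and 0.264 RPKM in sic-Myc cells and 0.68 and 0.363 RPKM in siGcn5 cells, against 0.0358 and 0.0843 RPKM in siControl cells, all without dox. Both knockdown groups lay above the siControl group, with 118 and 57 reads in sic-Myc cells and 140 and 52 reads in siGcn5 cells, against 8 and 21 reads in siControl cells.

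The difference in log2(RPKM + 1) of Krt14 without dox was 0.36 in sic-Myc cells (SE 0.12, adjusted p = 0.0614, limma) and 0.51 in siGcn5 cells (SE 0.12, adjusted p = 0.00489, limma). The call in siGcn5 cells was lost without its replicate 1 (0.36, adjusted p = 0.0518). With a pseudocount of 0.1 the differences were 1.51 in sic-Myc cells (adjusted p = 0.00325, limma) and 1.93 in siGcn5 cells (adjusted p = 0.000166). The other members gave no call in either comparison with limma on log2(RPKM + 1). Voom on the recovered reads called Krt15 in sic-Myc cells (-3.10 on the log2 scale, adjusted p = 0.0294) and Krt6b in siGcn5 cells (-3.66, adjusted p = 0.0499). Krt17 was listed at 0 in both sic-Myc libraries, at 46 and 5 reads in siGcn5 cells and at 2 and 14 reads in siControl cells.

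The dox response of a keratin in a knockdown group can also be set against that in siControl cells, as a difference of differences. On the log2(RPKM + 1) scale 4 of the 6 keratins tested differed in their response between sic-Myc and siControl cells, against 54.1% of all genes tested, and 1 of the 4 was Krt15, with the same reservation on its selection. Between siGcn5 and siControl cells 1 of the 6 differed, Krt6b, against 25.9% of all genes tested. That call was lost with a pseudocount of 0.1 (-0.65, adjusted p = 0.0854, limma) and with voom, where the sign turned (2.66, adjusted p = 0.198). Krt14 passed there with a pseudocount of 0.1 (-1.79, adjusted p = 0.00864, limma) and with voom (-3.03, adjusted p = 0.00898). Between sic-Myc and siGcn5 cells 5 of the 6 differed, Krt15 again among them, against 35.0% of all genes tested. Because the levels without dox rest on few reads or none, these differences followed the levels with dox and depended on the pseudocount: for Krt14 the change of response by sic-Myc was 1.16 (adjusted p = 0.000424, limma) with a pseudocount of 1, 0.011 (adjusted p = 0.982) with 0.1 and -1.09 (adjusted p = 0.181) with voom on the recovered reads.

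Other keratins and their partners moved beside the 7 genes in sic-Myc against siControl cells with dox. Of all genes tested 37.7% were higher and 37.1% were lower in this comparison. Of the 6 keratins of simple epithelia 5 were tested and 4 were higher, with a median log2 difference of 0.71 beside 0.018 over all genes tested. Krt18, the type I partner of Krt8, averaged 18.1 ± 0.173 RPKM in sic-Myc cells and 5.29 ± 0.945 RPKM in siControl cells (SD, n = 2 each; log2 difference 1.61, adjusted p = 2.6e-06, limma). Krt7 was higher by 1.51, Krt8 by 0.71 and Krt20 by 0.44, whereas Krt19 had a log2 difference of -0.0036 and did not pass.

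Of the 12 suprabasal and mucosal keratins 4 were tested. Krt80 was higher, at 143 ± 21.4 RPKM in sic-Myc cells and 29.2 ± 3.05 RPKM in siControl cells (SD, n = 2 each; log2 difference 2.24, adjusted p = 8.07e-07, limma). Krt1, a type II keratin of suprabasal cells, was lower by -1.15, but it would not have passed the filter without the siControl libraries with dox. Of the 24 hair and root sheath keratins found 3 were tested, of which Krt84 was higher by 1.34 and Krt85 lower by -1.08, both at low levels. Krt84 reached 1 RPKM only in the sic-Myc libraries with dox, so its difference was built into its selection.

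Desmosomes and hemidesmosomes anchor keratin filaments to the membrane. Of their 22 listed genes 21 were tested, of which 13 were higher and 5 lower in sic-Myc than in siControl cells with dox, against 37.7% higher and 37.1% lower of all genes tested, with a median log2 difference of 0.56 beside 0.018 over all genes tested. Lamb3, a chain of the laminin under hemidesmosomes, was higher by 2.03. Itgb4, the hemidesmosomal integrin, averaged 118 ± 10.1 RPKM in sic-Myc cells and 51 ± 4.18 RPKM in siControl cells (SD, n = 2 each; 1.19, adjusted p = 1.68e-05, limma). Jup (plakoglobin) was higher by 1.16. Dsg2, a desmosomal cadherin, was higher by 1.02. The 5 lower genes were Pkp2 (-0.876), Dsc1 (-0.864), Pkp3 (-0.412), Perp (-0.361) and Lama3, also a laminin chain (-0.393). Of the 21 genes 2, Dsg2 and Dsc3, passed the filter only through the sic-Myc libraries with dox, so for these a difference was built into the selection. Dsg1a and Dsc1 would not have passed without the siControl libraries with dox, which favoured a lower level in sic-Myc cells. Dsc1 was lower, whereas Dsg1a had a log2 difference of -0.013 and did not pass the test (adjusted p = 0.933, limma). In siGcn5 against siControl cells with dox 11 of the 21 were higher and 8 lower, against 31.4% higher and 24.9% lower of all genes tested, and Itgb4 was among the lower, by -0.72 (adjusted p = 0.00122, limma).

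Of the 22 genes listed for wounds and hyperproliferation 16 were tested, of which 11 were higher and 1 was lower in sic-Myc than in siControl cells with dox, against 37.7% higher and 37.1% lower of all genes tested, with a median log2 difference of 0.52 beside 0.018. S100a7a (an S100 protein of inflamed skin) was higher by 2.54, Sfn by 1.93 and the growth factor gene Hbegf by 1.40. The exception was Sprr1b, a cornified envelope precursor, which averaged 3.93 ± 0.266 RPKM in sic-Myc cells and 22.8 ± 0.496 RPKM in siControl cells (SD, n = 2 each; -2.27, adjusted p = 3.79e-07, limma). Sprr1b and Krt6a thus fell where Krt14 and Krt16 rose. In siGcn5 against siControl cells with dox 7 of the 16 were higher and 2 lower, against 31.4% higher and 24.9% lower of all genes tested.

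Of 18 transcription factors of the epidermis 8 were tested, with 3 higher and 2 lower in sic-Myc than in siControl cells with dox, against 37.7% higher and 37.1% lower of all genes tested. Grhl3 was higher by 0.58 and Gata3 by 0.66, and Zfp750 was lower by -1.10 and Grhl1 by -0.71. Klf4, which also belongs to the reprogramming factors, averaged 144 ± 4.61 RPKM in sic-Myc cells, 75.4 ± 15.8 RPKM in siGcn5 cells and 105 ± 15.2 RPKM in siControl cells with dox (SD, n = 2 each). Pou5f1 averaged 110 ± 17.1, 169 ± 44.4 and 268 ± 27.9 RPKM and Sox2 averaged 16.9 ± 2.24, 19.5 ± 8.32 and 32.1 ± 4.27 RPKM in sic-Myc, siGcn5 and siControl cells with dox (SD, n = 2 each). The part of these levels in the keratin differences was not tested. Of the 10 other intermediate filament genes 7 were tested, with 3 higher and 3 lower, among them the lamin genes Lmnb1 (-1.59) and Lmnb2 (-1.29), the muscle filament gene Des (1.14) and Synm (-0.77).

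Markers of keratinocytes outside the 7 genes were present only in part. The sum of the 8 markers that are not members was 433 to 469.6 RPKM in sic-Myc cells, 195 to 227 RPKM in siGcn5 cells and 273 to 285 RPKM in siControl cells with dox, against 24.3 to 30.8 RPKM over the libraries without dox. At least 1 RPKM in both libraries was reached by 6, 5 and 5 of the 8 with dox in the same order of groups. Trp63, the factor that defines basal keratinocytes, was at 0.0516 RPKM or less in every library. Col17a1, a hemidesmosomal collagen of basal cells, was at 0.643 RPKM or less. All 10 fibroblast markers were at 1 RPKM or more in every library, but their sum, mostly of Col1a1, Col1a2 and Vim, was lower with dox. It was 5196 to 5265 RPKM in sic-Myc cells, 3631 to 4198 RPKM in siGcn5 cells and 2680 to 3059.7 RPKM in siControl cells with dox. Without dox the sum was 8805 to 8858, 7588 to 7862 and 9779.6 to 9812 RPKM in the same order of groups. By limma 8 of the 10 were lower and 1 was higher with dox in sic-Myc cells, against 15.9% lower and 28.9% higher of all genes tested. In siGcn5 cells 9 were lower and 1 was higher, against 22.4% lower and 36.0% higher. The higher gene was Dcn in both. In sic-Myc cells Dcn had 272 and 293 RPKM with dox, against 10.9 and 12.1 RPKM without dox. In bulk libraries more cells that express a keratin and more of its RNA per cell cannot be told apart.

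Markers of other cell types were also summed. The 5 melanocyte markers summed to 1.14 to 1.41 RPKM in sic-Myc cells, 2.08 to 3.02 RPKM in siGcn5 cells and 1.32 to 1.55 RPKM in siControl cells with dox. The 5 blood markers summed to 11.8 to 12.4, 6.27 to 7.45 and 7.8 to 8.59 RPKM, and the 5 endothelial markers to 7.86 to 8.48, 11.9 to 12.1 and 9.0 to 9.91 RPKM, in the same order of groups. The 5 skeletal muscle markers summed to 258 to 266, 86.3 to 111 and 41.1 to 62.0 RPKM, with Myod1, Myog and Ckm under 0.1 RPKM in every group, and the 4 neural markers found summed to 163 to 190.4, 118 to 131 and 168 to 174 RPKM. A few genes carried much of the endothelial, neural and blood sums with dox. Tek had 4.26 to 9.45 RPKM over the dox libraries, whereas Pecam1 and Cdh5 were at 0.694 RPKM or less. The neural sums came from Tubb3 and Nes, with Rbfox3 and Gfap at 0.225 RPKM or less, and Cd68 was the most abundant blood marker. The part of any of these cell types in the keratin differences was not tested.

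Profiles over the 12 libraries were compared only among tested genes whose highest group mean was at least 10 RPKM. For the mean of the tested keratins, taken as z-scaled log2(RPKM + 1), the listed keratins were left out, and for single members only the 7 genes. Closest to that mean were Dmkn (Pearson r = 0.9988), Nccrp1 (0.9973), Aqp3 (0.9971), Pi16 (0.997) and Fgfbp1 (0.9963). These correlations are descriptions over libraries that fall into those with and without dox, and they share that split. Among the 6 dox libraries alone r was 0.9359 for Dmkn, an epidermal secreted protein gene, and 0.6787 for Fgfbp1. Nccrp1 averaged 223 RPKM in sic-Myc cells, 71.9 RPKM in siGcn5 cells and 70.8 RPKM in siControl cells with dox, and it was the gene closest to both Krt14 (0.9979) and Krt16 (0.9992).

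Closest to Krt6a was Tgm1 (r = 0.9976), the gene of a transglutaminase that cross-links the cornified envelope. It averaged 11.5 RPKM in sic-Myc cells, 20.8 RPKM in siGcn5 cells and 21.4 RPKM in siControl cells with dox. Closest to Krt6b was Pi16 (0.9983), at 19.6, 9.64 and 14.9 RPKM in the same order of groups. Closest to Krt15 was Isx (0.9976) and closest to Krt17 was Lad1 (0.9979), whose r with Krt17 among the 6 dox libraries alone was -0.2427.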

How the data were processed

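The deposited tables hold RPKM per gene symbol, made by the authors from ribosome-depleted total RNA libraries; per the submitters' processing notes the tools were Bowtie 0.12.8, TopHat2 2.0.9, HTSeq, edgeR and affy with mouse build mm9. RPKM values were compared as log2(RPKM + 1) with limma 3.58.1 in R 4.3.3, with intensity trend, 1 term per group over all 12 libraries, a filter of 1 RPKM in at least 2 libraries (13175 genes) and Benjamini-Hochberg adjustment. Whole reads were recovered from the RPKM steps (100% of values within 0.05 of a read) and gave depths of 65.5 M to 188 M. The step of a gene was chosen to put all its values within 0.05 of a read, so the 100% is no check of the reads. The read recovery and the limma step were also run on simulated data. The simulated read recovery left out the genes with the most reads, Krt14 and Krt16 among them. Replicates of a group differed by more than sampling noise (chi-square per degree of freedom 32.2 to 88.3). Alternatives were a pseudocount of 0.1, no filter, median-ratio scaling, quantile normalization, voom on recovered reads, a replicate block and each library left out. The named genes were all members, the checks of the labels, the genes closest in profile and up to 4 called genes per list. Of the desmosome and hemidesmosome list the genes called lower were named as well. The members and lists were chosen with earlier results of these data known. Sequences and loci are from GENCODE (GRCm38).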

Additional observations from a re-analysis of the deposited data

Results flagged for a closer look

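The dox response of several keratins differed between siRNA groups by the test of the difference itself, on the log2(RPKM + 1) scale (limma, n = 2 libraries a group). Between sic-Myc and siControl cells the response differed by 1.16 for Krt14, 0.79 for Krt15, 1.67 for Krt16 and -1.40 for Krt6a. Between siGcn5 and siControl cells it differed by -0.94 for Krt6b. Between sic-Myc and siGcn5 cells it differed by 1.54 for Krt14, 0.75 for Krt15, 1.83 for Krt16, -0.80 for Krt6a and 1.11 for Krt6b. Krt15 passed the filter only through the sic-Myc libraries with dox, so both of its differences were built into its selection. In sic-Myc against siGcn5 cells the call of Krt6a (adjusted p = 0.0447, limma) was lost under 5 of 6 other ways of processing and in 10 of 12 fits with 1 library left out, and the value of Krt6b turned to -0.29 with voom (adjusted p = 0.916). In siGcn5 against siControl cells Krt6b turned to 2.66 with voom (adjusted p = 0.198). The changes by sic-Myc of Krt14 and Krt6a also turned sign with voom, to -1.09 and 1.92. The sic-Myc and siGcn5 comparisons with siControl cells share the siControl libraries.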

How the results depend on the processing

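Of 1072 refitted values for single keratins, 1001 kept their direction and, where tested, their side of the threshold, and 23 changed sign. In sic-Myc against siControl cells with dox, Krt14 (1.42 to 1.89), Krt16 (1.54 to 2.02) and Krt6a (-1.76 to -1.08) kept both under every alternative, as did Krt6b in siGcn5 against siControl cells (-1.15 to -0.80). Krt15 (0.59 to 1.45) was not tested without either sic-Myc library with dox, through which alone it passed the filter, so this range says nothing about its stability. Differences of dox responses depended on how levels near 0 were treated. With a pseudocount of 0.1 the sign turned for Krt17, to -0.40 in the change by siGcn5 and 0.79 in sic-Myc against siGcn5. With voom the change by sic-Myc became -1.09 for Krt14 and 1.92 for Krt6a, the change by siGcn5 0.0595 for Krt16, -1.65 for Krt17, 2.23 for Krt6a and 2.66 for Krt6b, and sic-Myc against siGcn5 5.25 for Krt17 and -0.29 for Krt6b; of these sign changes only the 5.25 passed the test (adjusted p = 0.00928), while without a change of sign voom also called Krt17 in the change by sic-Myc (3.60, adjusted p = 0.0394) and Krt14 in the change by siGcn5 (-3.03, adjusted p = 0.00898). Values near 0 also changed sign without passing: Krt17 in sic-Myc against siControl cells with dox (0.00304 with median-ratio scaling, 0.0769 with quantile normalization, -0.133 to 0.0845 with 1 library left out), Krt15 in siGcn5 against siControl cells with dox (-0.014 with median-ratio scaling, -0.089 with quantile normalization) and in the change by siGcn5 (-0.0469 with quantile normalization). With 1 library left out this also held for Krt15 (-0.0535 to 0.0243) and Krt16 (-0.0413 to 0.0276) in siGcn5 against siControl cells without dox and Krt17 in the change by sic-Myc (-0.0827 to 0.135). Krt6b ranged from -0.0784 to 0.372 in sic-Myc against siControl cells with dox, where it passed in 1 fit, and from -0.0514 to 0.399 in the change by sic-Myc. Without dox, the count of keratins called in sic-Myc against siControl cells (0) was 1 with a pseudocount of 0.1, median-ratio scaling, quantile normalization or the replicate block, and 2 with voom; that in siGcn5 cells (1) was 2 with voom. With 1 library left out, where the lone library is assumed to vary like the other groups, counts ranged from 0 to 1 for sic-Myc and 0 to 1 for siGcn5 without dox, from 1 to 3 for siGcn5 against siControl cells with dox, from 1 to 2 for the change of response by siGcn5 and from 3 to 5 for the response of sic-Myc against that of siGcn5 cells. Krt6a in this last comparison lost its call under 5 of 6 other alternatives and in 10 of 12 such fits. Over all genes, the count called ranged from 1068 to 3492 (3098 with all libraries) in sic-Myc against siControl cells without dox, from 1660 to 3920 (3409) in the change by siGcn5 and from 2936 to 4975 (4609) in the response of sic-Myc against siGcn5 cells. Median-ratio scaling moved the median of all genes by 0.119 in sic-Myc against siGcn5 cells with dox, -0.111 in siGcn5 against siControl cells without dox and -0.101 for dox in siGcn5 cells, and quantile normalization moved it by -0.134 for dox in siGcn5 and -0.147 for dox in sic-Myc cells. Same-numbered replicates deviated together with r of 0.0933 to 0.489, over 0.1 in 14 of 15 pairs of groups; no label ties the numbers to a shared source, and the block changed no call of a keratin other than Krt14 in sic-Myc against siControl cells without dox (0.36, adjusted p = 0.0322, limma). Depth limits statements without dox, where most keratins rest on under 20 reads.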
